A study of Rattus norvegicus with 18 samples.

Results

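Myc, Mxi1, the Id proteins and the Btg proteins regulate whether a cell grows and divides, and this account follows their transcripts in 2 rat thyroid cell lines before and after thyroid-stimulating hormone (TSH). The genes were taken as every probe set that the platform annotation assigns to 1 symbol, that symbol being Myc, Mxi1, Id1, Id2, Id3, Btg1 or Btg2. This gave 11 of the 8740 probe sets tested, for 6 of the 7 symbols. No probe set carried the symbol Btg2 alone. The symbols were chosen from earlier results of these arrays, in which the log2 differences and calls of FRTL5 cells after TSH were known. The limma calls of these genes in FRTL5 cells, and their counts, are therefore given below as a description, with no p, and nothing is read from them. FRT/TSHR cells, labelled de-differentiated rat thyrocytes, were profiled unstimulated, after 30 min and after 17 h with 1 U/L bovine TSH. FRTL5 cells, labelled differentiated rat thyrocytes, were profiled unstimulated, after 30 min and after 17 h with 0.1 U/L bovine TSH. Each of the 6 groups had 3 arrays, which the series' design text calls biological replicates. FRT/TSHR cells grew in Ham's F12 medium as modified by Coon, and FRTL5 cells spent 5 days in a TSH-free medium (5H), and both lines were kept without serum for 12 h before TSH. Line, medium and TSH dose therefore cannot be told apart. No untreated array was paired in time with 30 min or 17 h, so hours in culture and TSH cannot be told apart either. Both times in a line were set against the same 3 basal arrays. How the receptor was introduced into FRT/TSHR cells, and whether the line is 1 clone, is not given in the sources used here.

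TSH acts on thyroid follicular cells mainly by raising cyclic AMP, and in FRTL5 cells it is both a growth and a differentiation signal. Myc is a transcription factor that binds DNA with its partner Max and drives ribosome and metabolite production, while Mxi1 competes for Max and represses Myc-bound genes. Id proteins are helix-loop-helix factors without a DNA-binding region. They hold E proteins away from DNA, are direct targets of bone morphogenetic protein (BMP) signals, and also bind Pax factors. Btg1 and its relatives are antiproliferative adaptors that link the CCR4-NOT deadenylase to its messengers, and Btg1 is typically high in resting cells.

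The promoters of the 3 Id genes, relatives that did not all share 1 pattern in these arrays, are shown for comparison. Each line gives the 250 bases before the transcription start in RefSeq's promoter table for the rat assembly GRCr8, on the gene's own strand, with motif matches in capitals. The motifs searched on both strands were TGACG (the cyclic AMP response element half-site), the CCAAT box, the GC box GGGCGG, the TATA box TATAA and the E-box CACGTG, which Myc-Max binds. The window of Id1 lies at chr3:161671314-161671563 on the plus strand, that of Id2 at chr6:47470996-47471245 on the minus strand and that of Id3 at chr5:153656041-153656290 on the plus strand. In the gene annotation of the same assembly Id1 starts at 161671525 and Id3 at 153656253, so those windows run past the annotated gene start. The Id2 window ends just before its gene, and the Mxi1 window searched below lies inside its gene. Distances count from the starts in the promoter table, so they are not from a like point of each gene.
Id1: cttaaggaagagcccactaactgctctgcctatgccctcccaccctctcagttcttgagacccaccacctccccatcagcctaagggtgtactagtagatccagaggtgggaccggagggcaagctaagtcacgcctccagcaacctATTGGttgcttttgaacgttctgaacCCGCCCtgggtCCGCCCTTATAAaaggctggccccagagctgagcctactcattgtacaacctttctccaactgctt
Id2: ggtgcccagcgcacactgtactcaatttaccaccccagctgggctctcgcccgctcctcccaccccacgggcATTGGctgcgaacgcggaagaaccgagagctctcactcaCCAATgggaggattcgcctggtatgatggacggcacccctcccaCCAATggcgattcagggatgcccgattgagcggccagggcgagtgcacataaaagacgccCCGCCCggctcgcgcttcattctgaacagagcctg
Id3: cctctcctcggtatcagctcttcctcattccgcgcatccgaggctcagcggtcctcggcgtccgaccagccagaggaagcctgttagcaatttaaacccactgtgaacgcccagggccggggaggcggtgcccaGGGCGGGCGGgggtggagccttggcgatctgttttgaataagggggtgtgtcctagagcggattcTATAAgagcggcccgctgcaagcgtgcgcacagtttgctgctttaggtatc
Id1 held 1 CCAAT match 103 bases before the start, 2 GC boxes at 77 and 66 bases, and TATAA matches on both strands that overlap each other at 60 and 59 bases. Id2 held 3 CCAAT matches at 178, 139 and 95 bases and 1 GC box at 35 bases, with no TATAA. Id3 held 2 overlapping GC boxes at 116 and 112 bases and 1 TATAA at 51 bases. Over the 33465 promoters of the table, CCAAT was found in 34%, GGGCGG in 30.5%, TATAA in 24%, TGACG in 18.2% and CACGTG in 5.59%. The 250-base windows of Id1, Id2, Id3, Mxi1 and Btg1 held neither TGACG nor CACGTG. Mxi1 held 6 GC boxes and Btg1 held 3, and neither had a CCAAT or TATAA match. A match is a string of letters in these windows and not a measured binding site.

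The values are log2 signals as deposited, and they spanned 2.61 to 13.58, while the median of an array was 5.47 to 5.58. The number of arrays limits the precision. Tg, the thyroglobulin that follicular cells store as hormone precursor, averaged 4.17 ± 0.19 in FRT/TSHR basal cells and 11.21 ± 0.70 in FRTL5 basal cells (SD, n = 3 each). Of the 6 measured thyroid genes, Tg, Slc5a5, Foxe1 and Pax8 were lower in FRT/TSHR basal cells in limma's test, and Nkx2-1 and Tshr were not called. Of all genes 28.5% were called in that comparison, and 13.8% were called lower. Same-numbered arrays of a line deviated together, and so are also treated as pairs within a line. The 3 FRTL5 arrays numbered 1 had 3′ to 5′ beta-actin differences of 1.13 to 1.22 log2 units, against at most 0.28 on the other 15 arrays. A difference of this kind is a sign of RNA quality. Calls of the genes named below that ended without these arrays are stated beside them. Arrays measure bulk RNA, so fewer cells with a transcript and less transcript per cell cannot be told apart. Probe sets of a gene made from the same sequence are not independent, and no level is set against that of another probe set. A probe set is called below where limma's Benjamini-Hochberg adjusted p over all 8740 probe sets was under 0.05.

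Myc had 2 probe sets, which moved alike. In FRTL5 cells the first, Y00396mRNA_at, read 4.74, 5.10 and 5.11 at basal, 5.90, 6.59 and 6.64 at 30 min, and 5.06, 5.16 and 5.33 at 17 h. All 3 arrays at 30 min lay above all the others of this line, and the 17 h arrays overlapped the basal ones. The difference of 30 min from basal was 1.39 ± 0.24 (SE), or 2.63-fold, with same-numbered changes of 1.16, 1.49 and 1.53. At 17 h the difference from basal was only 0.20 ± 0.24, and 17 h lay below 30 min by -1.19 ± 0.24. The second probe set, Y00396mRNA_g_at, gave 1.50 ± 0.23 at 30 min and 0.38 ± 0.23 at 17 h against basal. Both probe sets were called at 30 min and neither at 17 h. The 30 min call of Y00396mRNA_at did not hold when any 1 array other than FRTL5 30 min replicate 1 was dropped (5 of 6 fits), while the difference stayed between 1.26 and 1.63. That of Y00396mRNA_g_at was lost without FRTL5 basal replicate 2 and without FRTL5 30 min replicate 2, with differences of 1.39 to 1.64.

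In FRT/TSHR cells Myc was high before any TSH. Y00396mRNA_at read 7.19, 7.86 and 7.82 at basal, 7.56, 8.15 and 8.31 at 30 min, and 7.50, 7.61 and 8.09 at 17 h, and the 3 groups overlapped. The lowest of these 9 arrays lay above the highest of the 9 FRTL5 arrays. Its difference from basal was 0.38 ± 0.24 at 30 min and 0.11 ± 0.24 at 17 h, with a limma adjusted p of 1.00 at both times. The second probe set read 7.39, 7.14 and 7.13 at basal, 7.54, 7.24 and 7.50 at 30 min, and 7.60, 6.82 and 7.55 at 17 h. From low to high, both probe sets ordered the groups as FRTL5 basal and 17 h, which overlapped, then FRTL5 30 min, then the 3 overlapping FRT/TSHR groups.

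**Figure D1:**
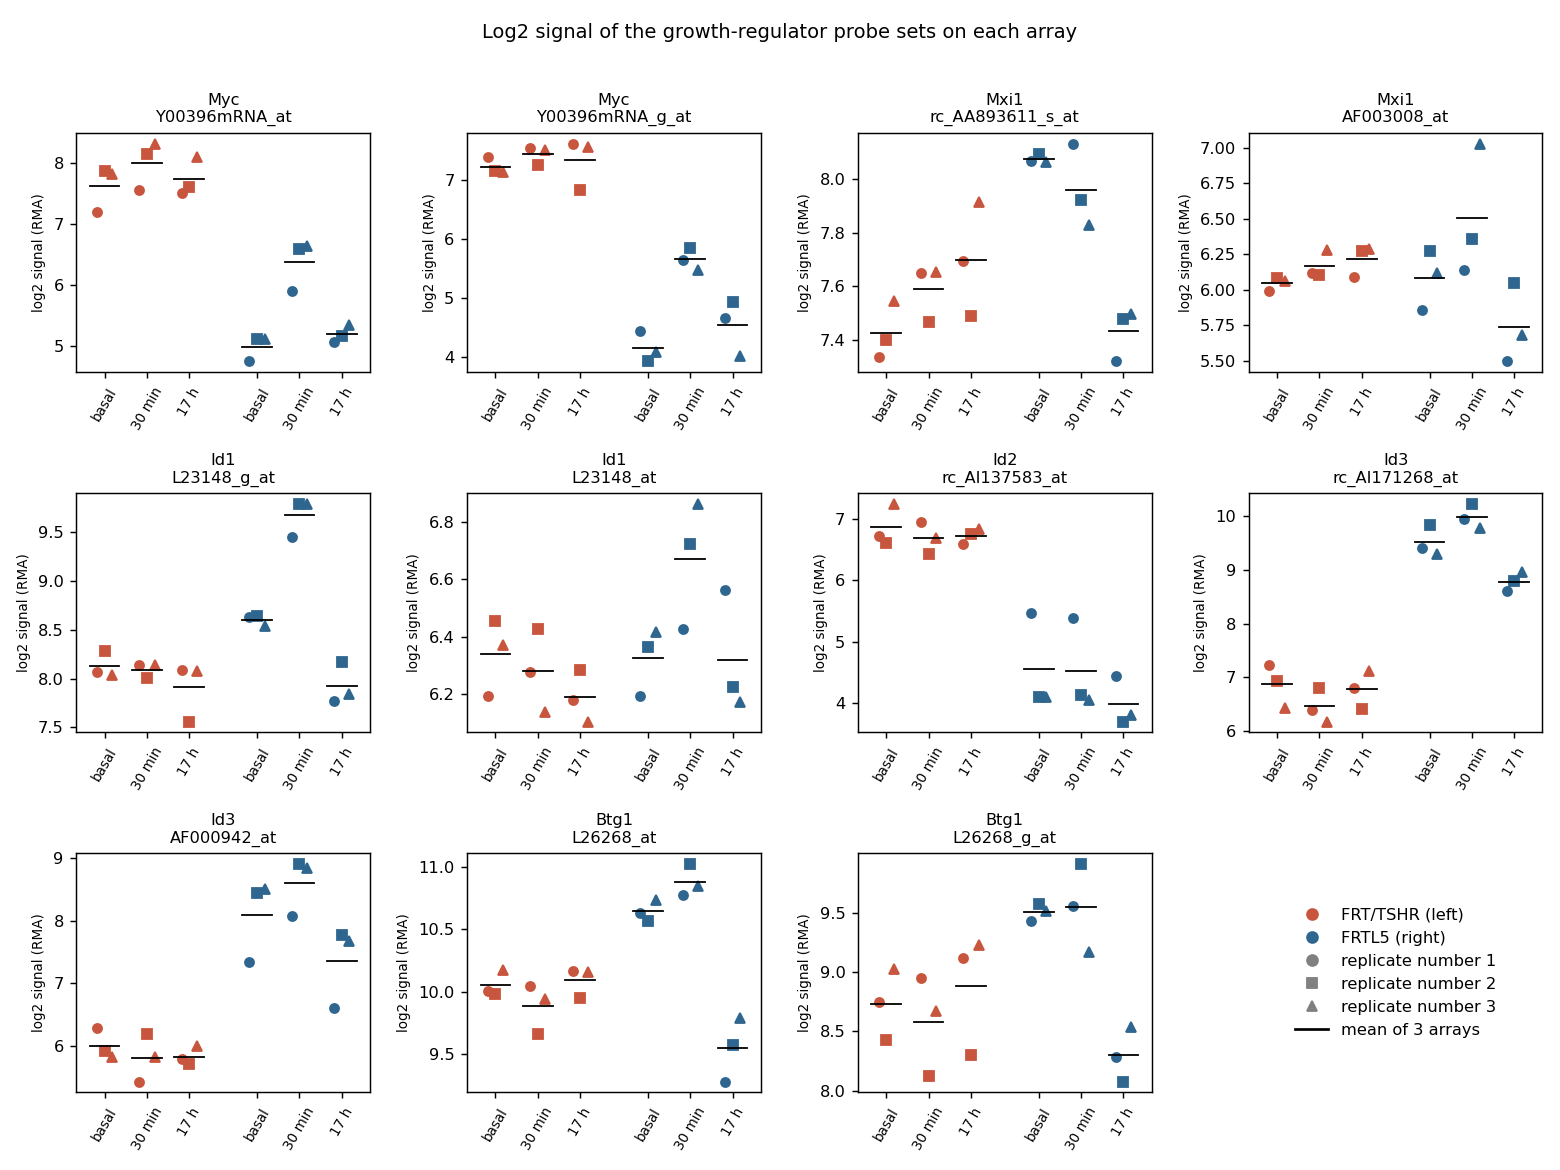
Log2 signal (vertical axis of each panel) of the 11 probe sets on each of the 18 arrays, with FRT/TSHR groups at the left and FRTL5 groups at the right of a panel, each in the order basal, 30 min, 17 h. Points are single arrays with their shape giving the replicate number, and black lines are means of 3 arrays. Myc and Id1 (L23148_g_at) stand high at 30 min in FRTL5 cells, Btg1 stands low there at 17 h, and the FRT/TSHR groups of a panel largely overlap.

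Mxi1, the Max partner that opposes Myc, was lower at 17 h in FRTL5 cells. Its representative probe set, rc_AA893611_s_at, read 8.07, 8.10 and 8.06 at basal, 8.13, 7.92 and 7.83 at 30 min, and 7.32, 7.48 and 7.50 at 17 h. Every 17 h array lay below every other FRTL5 array. The difference of 17 h from basal was -0.64 ± 0.12 (1.56-fold lower), with same-numbered changes of -0.75, -0.62 and -0.57, and it was called. The call was kept without any 1 array and ended when all 6 arrays numbered 1 were left out (-0.59). At 30 min the difference was -0.12 ± 0.12 and was not called. The same probe set in FRT/TSHR cells read 7.34, 7.40 and 7.55 at basal, 7.65, 7.47 and 7.65 at 30 min, and 7.69, 7.49 and 7.91 at 17 h. The FRT/TSHR groups overlapped, with differences of 0.16 ± 0.12 at 30 min and 0.27 ± 0.12 at 17 h (limma adjusted p = 1.00 at each). The second probe set, AF003008_at, showed the 17 h decrease only in part. It read 5.86, 6.27 and 6.12 at basal, 6.14, 6.36 and 7.03 at 30 min, and 5.50, 6.05 and 5.68 at 17 h in FRTL5 cells. Its 17 h difference from basal, -0.34 ± 0.19, was not called, although all 3 same-numbered changes were negative, and the single array at 7.03 stood apart at 30 min.

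Id1, an inhibitor of E proteins, had the largest swing of the 6 genes in FRTL5 cells among their representative probe sets, up at 30 min and then below basal. L23148_g_at read 8.63, 8.64 and 8.54 at basal, 9.45, 9.79 and 9.79 at 30 min, and 7.77, 8.17 and 7.84 at 17 h. The 3 groups did not overlap. At 30 min the difference from basal was 1.07 ± 0.15, or 2.10-fold, and this call was kept in all 6 fits without 1 array, with differences of 1.01 to 1.18. At 17 h the difference from basal was -0.68 ± 0.15 (1.60-fold lower), and from 30 min it was -1.75 ± 0.15 (3.36-fold lower). The 17 h call against basal ended when basal replicate 2, 17 h replicate 1 or 17 h replicate 3 was dropped, with differences of -0.80 to -0.60. It was also lost without the FRTL5 arrays numbered 1, at -0.58, and when both Id1 probe sets were averaged. The second probe set, L23148_at, had a narrow range. It read 6.19, 6.36 and 6.42 at basal, 6.43, 6.72 and 6.86 at 30 min, and 6.56, 6.23 and 6.17 at 17 h, and none of its differences was called. It was higher at 30 min by 0.35 ± 0.13 without overlap, but at 17 h it was at -0.01 ± 0.13 from basal, where L23148_g_at was lower. The Id1 probe sets therefore disagreed on the 17 h decrease.

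The FRT/TSHR arrays of L23148_g_at read 8.07, 8.28 and 8.04 at basal, 8.13, 8.00 and 8.14 at 30 min, and 8.09, 7.56 and 8.07 at 17 h. The groups overlapped, and the differences from basal were -0.04 ± 0.15 at 30 min and -0.22 ± 0.15 at 17 h (limma adjusted p = 1.00 at each). The low 17 h mean came from replicate 2 alone. All 9 FRT/TSHR arrays lay below the FRTL5 basal arrays, and they overlapped the FRTL5 17 h arrays.

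Id3, a close relative of Id1, had differences of the same sign as Id1 L23148_g_at in FRTL5 cells, smaller at 30 min and of similar size at 17 h. Its representative probe set, rc_AI171268_at, read 9.41, 9.83 and 9.31 at basal, 9.95, 10.23 and 9.79 at 30 min, and 8.61, 8.80 and 8.96 at 17 h. The 30 min arrays overlapped the basal ones, but each same-numbered change was positive (0.54, 0.39 and 0.48), for a difference of 0.47 ± 0.23 that was not called. All 17 h arrays lay below the others, with a difference from basal of -0.73 ± 0.23 that was not called. It was called with the replicate number as a block within the line and when the arrays were quantile normalized again, and not with a block shared by the lines. Between 17 h and 30 min the difference was -1.20 ± 0.23 (2.30-fold lower) and was called, but not without the FRTL5 arrays numbered 1 (-1.13). The second probe set, AF000942_at, read 7.33, 8.44 and 8.50 at basal, 8.08, 8.91 and 8.84 at 30 min, and 6.60, 7.78 and 7.67 at 17 h. In each of these groups the array numbered 1 was the lowest, yet all same-numbered changes had the direction of the first probe set. Its difference from basal was 0.52 ± 0.34 at 30 min and -0.74 ± 0.34 at 17 h. Id3 was far lower in FRT/TSHR cells, with 7.23, 6.94 and 6.44 at basal, 6.40, 6.80 and 6.18 at 30 min, and 6.81, 6.41 and 7.13 at 17 h for rc_AI171268_at. These groups overlapped, and the differences of -0.41 ± 0.23 at 30 min and -0.09 ± 0.23 at 17 h were not called (limma adjusted p = 1.00 at each).

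Id2 had 1 probe set, rc_AI137583_at, and a pattern unlike that of Id1 and Id3. In FRTL5 cells it read 5.46, 4.10 and 4.10 at basal, 5.40, 4.13 and 4.04 at 30 min, and 4.44, 3.70 and 3.81 at 17 h. The array numbered 1, which had the large beta-actin difference given above, was the highest of each group. The groups overlapped, that of 17 h only through its array numbered 1. The same-numbered changes were small at 30 min (-0.07, 0.03 and -0.06) and all negative at 17 h (-1.02, -0.40 and -0.29). The difference from basal was -0.03 ± 0.37 at 30 min and -0.57 ± 0.37 at 17 h. The 17 h difference was called only with the replicate block within the line, and it lay between -0.80 and -0.12 when 1 array was left out. Id2 in FRT/TSHR cells read 6.73, 6.62 and 7.25 at basal, 6.95, 6.44 and 6.69 at 30 min, and 6.59, 6.76 and 6.84 at 17 h. All 9 lay above all 9 FRTL5 arrays, and the differences from basal were -0.18 ± 0.37 at 30 min and -0.14 ± 0.37 at 17 h (limma adjusted p = 1.00 at each). The Id2 window printed above held no exact TATAA match, which is a description of letters only, and its relation to the Id2 signal was not tested.

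Btg1, the antiproliferative adaptor, was the member with the largest decrease from basal at 17 h in FRTL5 cells. L26268_at read 10.63, 10.57 and 10.73 at basal, 10.78, 11.02 and 10.84 at 30 min, and 9.28, 9.58 and 9.79 at 17 h. The groups did not overlap, with 30 min slightly above basal and 17 h well below both. The difference from basal was 0.24 ± 0.13 at 30 min, not called, and -1.10 ± 0.13 at 17 h (2.14-fold lower). Same-numbered changes at 17 h were -1.35, -0.99 and -0.95, and the call was kept in all 6 fits without 1 array. The second probe set, L26268_g_at, read 9.42, 9.57 and 9.51 at basal, 9.55, 9.91 and 9.17 at 30 min, and 8.29, 8.08 and 8.54 at 17 h. Its 17 h difference of -1.20 ± 0.26 was also called, but not when basal replicate 2, 17 h replicate 2 or the FRTL5 arrays numbered 1 were dropped. In FRT/TSHR cells L26268_at read 10.00, 9.98 and 10.17 at basal, 10.04, 9.66 and 9.95 at 30 min, and 10.17, 9.95 and 10.16 at 17 h. These groups overlapped, and the differences from basal were -0.17 ± 0.13 at 30 min and 0.04 ± 0.13 at 17 h (limma adjusted p = 1.00 at each). The FRTL5 17 h arrays overlapped those of FRT/TSHR 30 min, the next group in order, and the FRTL5 basal arrays lay above all FRT/TSHR arrays.

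**Figure D2:**
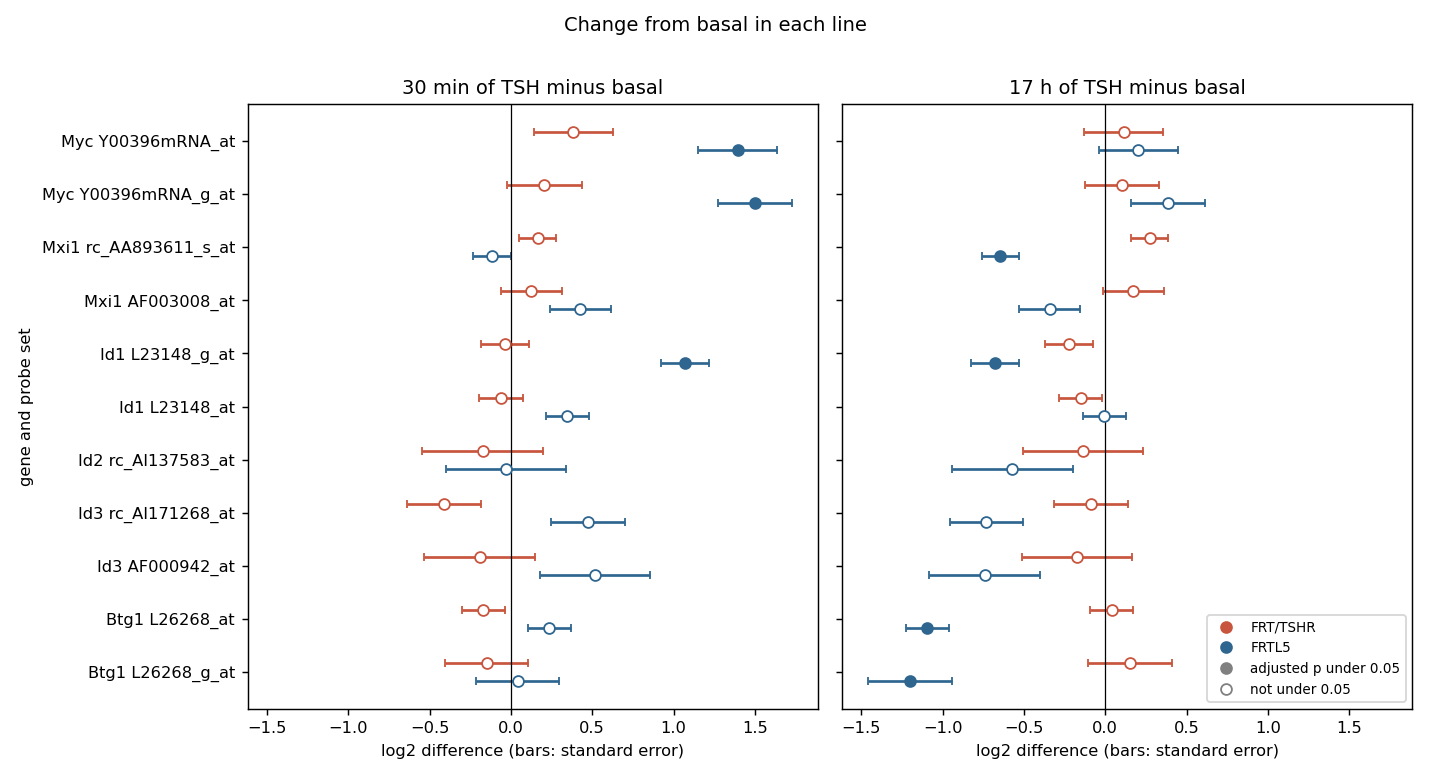
Log2 difference from basal (horizontal axis) for each of the 11 probe sets after 30 min (left panel) and 17 h (right panel) of TSH, with FRT/TSHR above FRTL5 in each pair and bars giving the standard error. Filled points are called and open points are not. The 3 filled points at 30 min and the 4 at 17 h are all from FRTL5 cells, the first set above 0 and the second below.

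Counted over the 11 probe sets, 3 were called in FRTL5 cells at 30 min, all higher (both Myc probe sets and Id1 L23148_g_at), where 0.24% of all probe sets were called. The ranges of 5 did not overlap basal, against 6.35% of all probe sets. At 17 h against basal, 4 were called, all lower (Mxi1, Id1 and both Btg1 probe sets), where 3.56% of all were called and 1.92% were called lower. With the replicate block within the line, 7 were called at 17 h, adding Id2 and both Id3 probe sets, where 9.92% of all were called. A block shared by the lines, chosen after seeing the data, gave 4, with none of these 3 added calls, where 5.81% of all were called. Again 5 did not overlap basal, against 15.4% of all. Between 17 h and 30 min, all 11 were lower at 17 h and 9 were called, where 4.21% of all were called and 2.35% were called lower, and 9 did not overlap, against 17.1% of all. Only Id1 L23148_at and Id2 were not called there. Leaving out FRTL5 30 min replicate 2 lowered that count to 3, and the count over all probe sets from 368 to 145. Without the FRTL5 arrays numbered 1 the count among the 11 was 7, with Mxi1 rc_AA893611_s_at (-0.39), Id3 rc_AI171268_at and Btg1 L26268_g_at lost and Id1 L23148_at gained. When only the groups compared were fitted, the counts were 0 at 30 min, 3 at 17 h and 5 for 17 h against 30 min. The counts over all probe sets fell in those fits too. These contrasts were known when the genes were listed, so nothing is read from the counts. The 3 contrasts share arrays with one another.

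In FRT/TSHR cells none of the 11 probe sets was called at 30 min or at 17 h. Nor was any other probe set at either time, a background of 0% in each. At an unadjusted p under 0.05, limma gave 208 probe sets at 30 min (2.38%), none of them among the 11, and 108 at 17 h (1.24%), 1 of them among the 11. The differences of the 11 ran from -0.41 to 0.38 at 30 min and from -0.22 to 0.27 at 17 h. At each time 1 probe set, Mxi1 AF003008_at, did not overlap basal, against 7.84% of all probe sets at 30 min and 5.64% at 17 h.

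Before TSH the lines differed in most of these genes, and not in 1 direction. Whether this line difference was also used to list the genes is not recorded, so its p values are given as a description. Myc and Id2 were higher in FRT/TSHR basal cells, and Id3 and Btg1 were lower. Mxi1 and Id1 were each lower by 1 probe set but not by the other. By limma 9 of the 11 probe sets were called, 3 higher and 6 lower, where 25.5% of all probe sets were called (13.3% higher and 12.2% lower), and 9 did not overlap between the lines, against 37% of all. Myc Y00396mRNA_at averaged 7.62 ± 0.38 in FRT/TSHR basal cells and 4.98 ± 0.21 in FRTL5 basal cells (SD, n = 3 each), a difference of 2.64 ± 0.24 (6.22-fold, limma adjusted p = 4.28e-07). The second Myc probe set differed by 3.06 ± 0.23 (8.36-fold, limma adjusted p = 4.03e-08). Id2 averaged 6.87 ± 0.34 in FRT/TSHR basal cells and 4.55 ± 0.79 in FRTL5 basal cells, or 4.97-fold higher (2.31 ± 0.37, limma adjusted p = 0.000159). Both genes were also called without the FRTL5 arrays numbered 1 and without any 1 basal array.

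Id3 was lower by the same order of size, averaging 6.87 ± 0.40 in FRT/TSHR basal cells and 9.52 ± 0.28 in FRTL5 basal cells for rc_AI171268_at. The difference was -2.65 ± 0.23 (6.27-fold lower, limma adjusted p = 1.93e-07), and that of AF000942_at was -2.09 ± 0.34 (limma adjusted p = 0.000183). Smaller decreases were found for Mxi1 rc_AA893611_s_at (-0.65 ± 0.12, limma adjusted p = 0.000406) and Btg1 L26268_at (-0.59 ± 0.13, limma adjusted p = 0.00298). Those of Btg1 L26268_g_at (-0.77 ± 0.26, limma adjusted p = 0.0363) and Id1 L23148_g_at (-0.47 ± 0.15, limma adjusted p = 0.0250) rested on few arrays. The Btg1 L26268_g_at call ended in 5 of 6 fits that dropped an array, all but that of FRT/TSHR basal replicate 3, and the Id1 call in 4 of 6, those without replicate 1 or 2 of FRTL5 basal or replicate 1 or 3 of FRT/TSHR basal. The Btg1 L26268_g_at call also ended without the FRTL5 arrays numbered 1 (-0.81, limma adjusted p = 0.0713). The Id1 call also ended when all arrays numbered 1 were left out (-0.43) and when the Id1 probe sets were averaged (-0.23). Mxi1 AF003008_at (-0.04 ± 0.19, limma adjusted p = 0.926) and Id1 L23148_at (0.01 ± 0.13, limma adjusted p = 0.957) were not called, so the probe sets of Mxi1 and of Id1 disagreed.

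**Figure D3:**
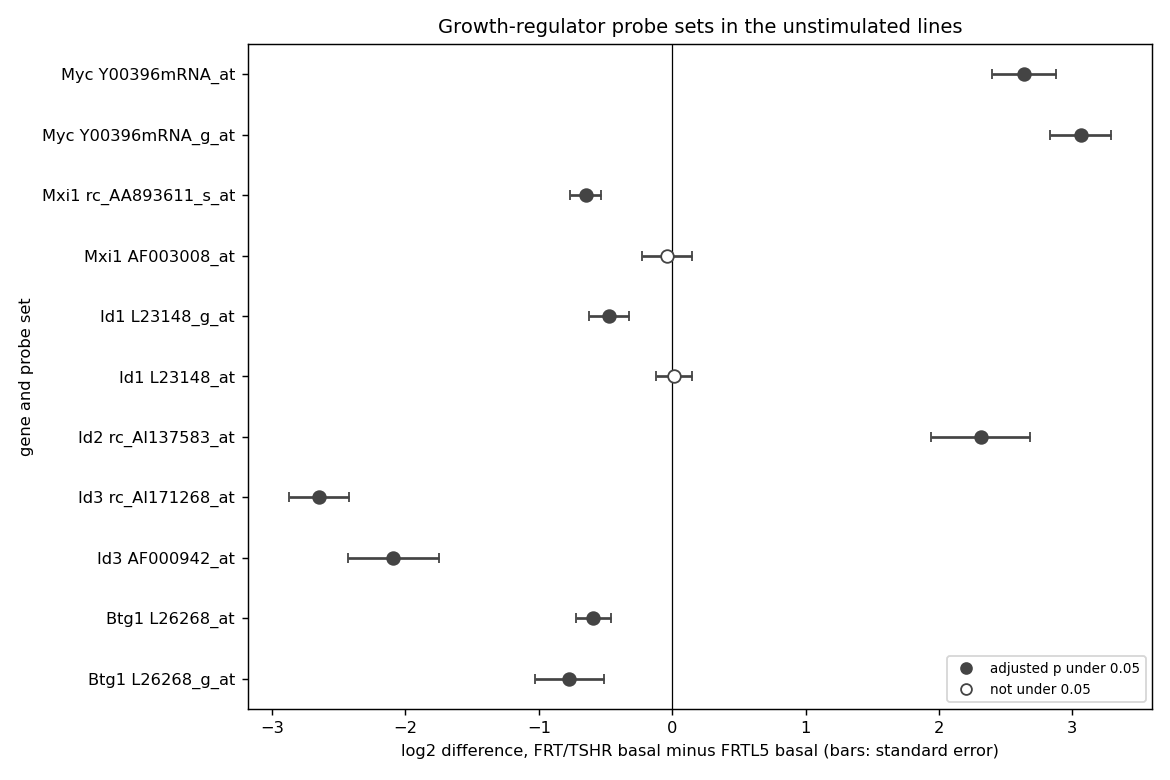
Log2 difference of FRT/TSHR basal minus FRTL5 basal (horizontal axis) for the 11 probe sets, with bars giving the standard error. Filled points are called and open points are not. Both Myc probe sets and Id2 lie above 2, both Id3 probe sets below -2, and the others between -0.77 and 0.01.

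The response of FRT/TSHR cells minus that of FRTL5 cells was described as a single quantity for each probe set. At 30 min it was -1.01 ± 0.34 and -1.30 ± 0.32 for the Myc probe sets and -1.11 ± 0.21 for Id1 L23148_g_at, with none of the 11 called, where 0.0343% of all probe sets were called. Leaving out FRTL5 30 min replicate 1, or all FRTL5 arrays numbered 1, made the Id1 difference a call (-1.24 in the second case). At 17 h it was 1.13 ± 0.19 for Btg1 L26268_at and 0.92 ± 0.16 for Mxi1 rc_AA893611_s_at, and these 2 of the 11 were called, where 0.789% of all were and 0.309% in this direction. With the replicate block within each line 3 were called, adding Btg1 L26268_g_at (1.35 ± 0.36), where 4.18% of all were. These differences contain the FRTL5 contrasts that were known when the genes were listed.

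Of the wider Myc-Max network, 6 of 15 listed genes were measured besides Myc and Mxi1. This list and those that follow were chosen with earlier results of these data known. Their counts and p values are therefore given as a description. None of the 6 was called in FRTL5 cells at 30 min or 17 h against basal, where 0.169% and 4.12% of all genes were. Mxd4, another Max partner that represses transcription, was the nearest at 17 h (-0.82 ± 0.24, limma adjusted p = 0.0805). With the replicate block within line, under which 9.92% of all probe sets were called, Mxd4 was called. It was called against 30 min (-0.97 ± 0.24, limma adjusted p = 0.0284), a call that ended in 5 of 6 fits that dropped an array, all but that of FRTL5 17 h replicate 2, and also without the FRTL5 arrays numbered 1. Between the basal lines 3 of the 6 were called, against 28.5% of all genes. In FRT/TSHR basal cells Mxd4 was lower (-1.17 ± 0.24, limma adjusted p = 0.00130), as was Mycn, a Myc paralogue (-0.72 ± 0.18, limma adjusted p = 0.00636), although Mycn was not called when all 6 arrays numbered 1 were left out (limma adjusted p = 0.0628). Ruvbl1, an ATPase of chromatin complexes that bind Myc, was higher there (0.52 ± 0.16, limma adjusted p = 0.0263), but not in 4 of 6 fits without 1 array, those without replicate 1 or 3 of FRTL5 basal or replicate 2 or 3 of FRT/TSHR basal, nor without the FRTL5 arrays numbered 1.

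Some textbook Myc target genes were higher in FRTL5 cells at 17 h, which is likewise a description. Of 30 listed genes 15 were measured, and none was called at 30 min, where 0.169% of all 4736 genes were. At 17 h all 15 lay above basal, as did 52.4% of all genes, with a median difference of 0.42 against 0.01 for all genes. Of the 15, 3 were called higher (20%, against 1.86% of all genes called higher and 4.12% called in either direction). Tfrc, the transferrin receptor that brings iron into dividing cells, averaged 6.42 ± 0.48 at 17 h and 4.85 ± 0.32 at basal (SD, n = 3 each; 1.57 ± 0.30, limma adjusted p = 0.00766), and stayed called without any 1 array. Nme1, a nucleoside diphosphate kinase, was higher by 0.60 ± 0.14 (limma adjusted p = 0.0266), and Hspe1, a mitochondrial chaperonin, by 0.63 ± 0.16 (limma adjusted p = 0.0404). Each of these calls ended in 5 of 6 fits that dropped an array, all but that of FRTL5 basal replicate 2 for Nme1 and of FRTL5 17 h replicate 2 for Hspe1, and both ended without the FRTL5 arrays numbered 1. Leaving out FRTL5 basal replicate 3, FRTL5 17 h replicate 1 or FRTL5 17 h replicate 3 brought the count to 1, and a fit of the compared groups alone gave 0. With the replicate block within line it was 5 at 17 h, Hspd1 and Mat2a besides these 3, where 9.92% of all probe sets were called. Mat2a was also called at 30 min with that block, where 0.458% of all probe sets were called. In FRT/TSHR cells none of the 15 was called at either time. There 12 of the 15 lay below basal at 30 min (median -0.22, against 0.03 for all genes) and 10 at 17 h (median -0.02, against 0.01 for all genes). Of all 4736 genes, 2030 lay below basal at 30 min and 2245 at 17 h.

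Between the unstimulated lines, 7 of the 15 Myc target genes were called, all higher in FRT/TSHR cells (46.7%, against 28.5% of all genes called and 14.8% called higher). The median difference was 0.62, against -0.04 for all genes. Tfrc averaged 7.11 ± 0.29 in FRT/TSHR basal cells and 4.85 ± 0.32 in FRTL5 basal cells (2.27 ± 0.30, limma adjusted p = 2.21e-05). Nme1 differed by 1.16 ± 0.14 (limma adjusted p = 9.93e-06). Nolc1, a nucleolar phosphoprotein, differed by 1.05 ± 0.18 (limma adjusted p = 0.000354), and Hspe1 by 0.76 ± 0.16 (limma adjusted p = 0.00177). These 4 calls were kept without any 1 array, and the count was 4 without FRTL5 basal replicate 3. Both this comparison and that of 17 h with basal use the FRTL5 basal arrays.

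**Figure D4:**
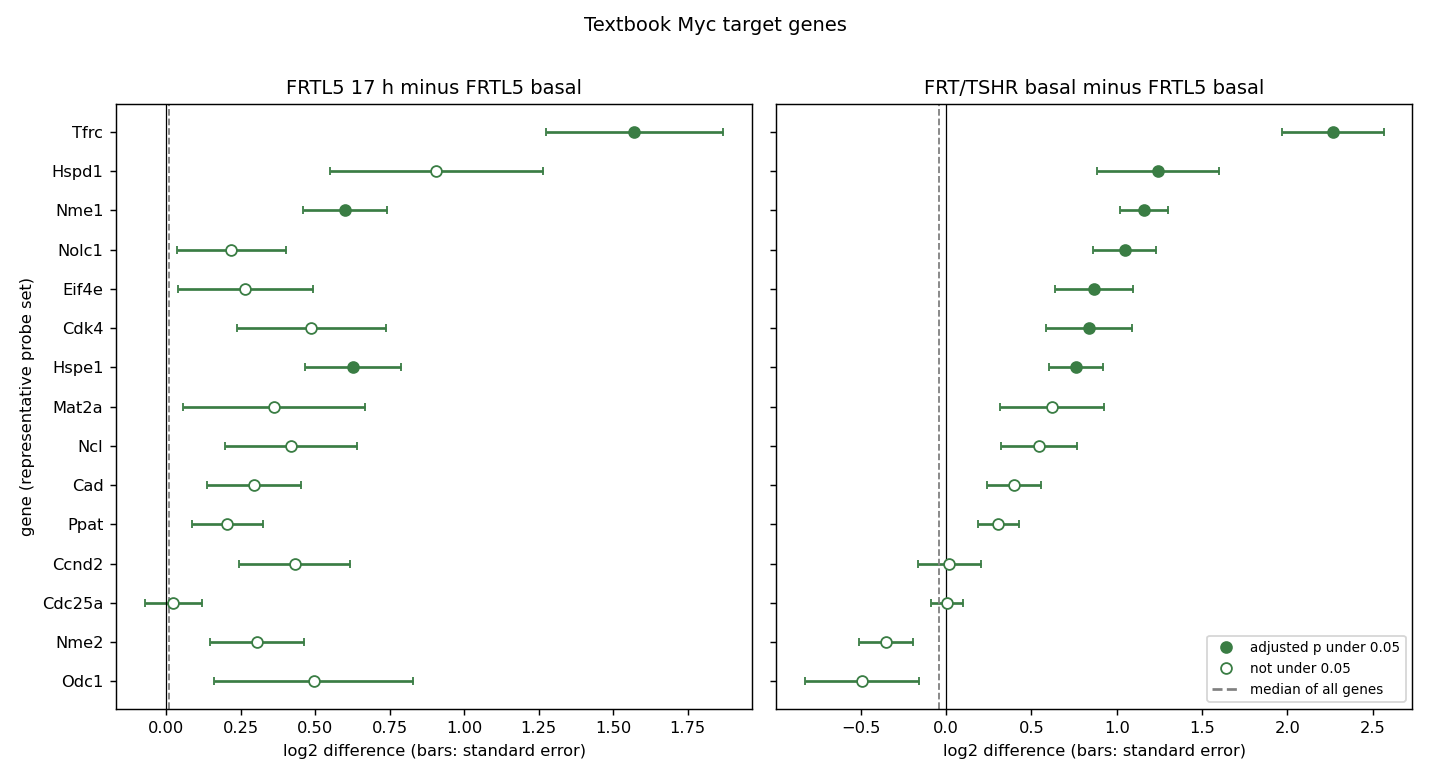
Log2 difference (horizontal axes, with bars giving the standard error) of the 15 measured Myc target genes for FRTL5 17 h minus FRTL5 basal (left) and FRT/TSHR basal minus FRTL5 basal (right). Filled points are called, open points are not, and the dashed line is the median of all genes (0.01 left, -0.04 right). All 15 points lie above 0 at the left and 13 at the right (52.4% and 43.2% of all genes do), with 3 and 7 called. The panels share the FRTL5 basal arrays.

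Among BMP-SMAD genes, the pathway upstream of Id transcription, 20 of 27 listed genes were measured. In FRTL5 cells none was called at 30 min, against 0.169% of all genes, and 1 at 17 h against basal (5%, against 4.12% of all genes). That gene was Bmp4, a BMP ligand, which averaged 4.93 ± 0.29 at 17 h and 5.81 ± 0.50 at basal (-0.88 ± 0.23, limma adjusted p = 0.0437). Its call ended in 5 of 6 fits that dropped an array, all but that of FRTL5 basal replicate 1. Acvr2b, a receptor for activins and BMPs, was called with the replicate block within line, which called 9.92% of all probe sets at 17 h. The direction of that call is not given here. At 17 h 12 of the 20 lay above basal and 8 below, and 52.4% of all genes lay above. In FRT/TSHR basal cells 7 of the 20 were called, 2 higher and 5 lower (35%, against 28.5% of all genes). The ligand Bmp7 averaged 7.11 ± 0.11 in FRT/TSHR basal cells and 8.89 ± 0.08 in FRTL5 basal cells (-1.78 ± 0.15, limma adjusted p = 1.27e-07). Bmp4 (-1.76 ± 0.23, limma adjusted p = 1.80e-05) and Smad9, a receptor-regulated Smad (-0.63 ± 0.12, limma adjusted p = 0.000771), were lower too. Bmp3, a ligand that can oppose other BMPs, was higher (0.99 ± 0.20, limma adjusted p = 0.00135). The count of called genes was 4 without FRT/TSHR basal replicate 1.

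Of 22 listed partners of Id proteins and other helix-loop-helix factors 11 were measured, and none was called in FRTL5 cells against basal. Of all genes 0.169% were called there at 30 min and 4.12% at 17 h. With the replicate block within line Pax8 and the E protein Tcf12 were called at 17 h, where 9.92% of all probe sets were. The directions of these 2 calls are not given here. At 17 h 3 of the 11 lay above basal and 8 below, and 52.4% of all genes lay above. In FRT/TSHR basal cells 2 were lower and 1 was higher (27.3%, against 28.5% of all genes). Pax8, a thyroid transcription factor of the Pax family, was lower (-1.21 ± 0.23, limma adjusted p = 0.000662), as was the E protein Tcf4 (-0.59 ± 0.15, limma adjusted p = 0.00626). Bhlhe40, a helix-loop-helix repressor, was higher (0.97 ± 0.27, limma adjusted p = 0.0143), a call lost without FRTL5 basal replicate 1 and without FRT/TSHR basal replicate 3.

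Of the Btg family and its deadenylase partners, only Btg3 and Cnot2 of 18 listed genes were measured besides Btg1. Btg3, an antiproliferative relative of Btg1, moved against it at 17 h in FRTL5 cells, averaging 6.31 ± 0.08 at 17 h and 5.73 ± 0.27 at basal (0.58 ± 0.14, limma adjusted p = 0.0278). That call, too, ended in 5 of 6 such fits, all but that of FRTL5 basal replicate 1. In FRT/TSHR basal cells Btg3 averaged 4.23 ± 0.08, against 5.73 ± 0.27 in FRTL5 basal cells (-1.50 ± 0.14, limma adjusted p = 4.70e-07), the same direction as Btg1. Of 11 measured p53 and FoxO growth arrest genes among 22 listed, none was called in FRTL5 cells. Against basal 0.169% of all genes were called there at 30 min and 4.12% at 17 h. In FRT/TSHR basal cells 3 were higher and 2 lower (45.5%, against 28.5% of all genes), with Mdm2, the p53 ubiquitin ligase, higher by 1.54 ± 0.18 (limma adjusted p = 7.28e-06) and Klf4, a growth arrest factor, by 1.25 ± 0.17 (limma adjusted p = 3.47e-05). Ccng1, a cyclin induced by p53, was higher (1.27 ± 0.28, limma adjusted p = 0.00230) and Gas7, a growth-arrest-specific gene, lower (-0.87 ± 0.12, limma adjusted p = 3.25e-05).

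Markers of other cell types were checked beside the line comparison. None of 8 mesenchymal, 3 endothelial and 4 C cell genes was called between the basal lines, where 28.5% of all genes were. Of 6 leukocyte genes 2 were called (33.3%, against the same 28.5%). Lyz2 was lower (-0.83 ± 0.15, limma adjusted p = 0.000380) and Cd79b higher (1.15 ± 0.22, limma adjusted p = 0.000676) in FRT/TSHR basal cells. The summed linear signal of the leukocyte list was 250.1 to 261.1 there and 227.6 to 235.8 in FRTL5 basal cells. The summed signal of the mesenchymal list was also higher, at 677.4 to 746.5 in FRT/TSHR basal cells and 538.9 to 626.2 in FRTL5 basal cells, and that of the endothelial list lower, at 111.8 to 118.6 in FRT/TSHR basal cells and 125.1 to 144.4 in FRTL5 basal cells. The C cell sums overlapped. The part of these markers in the results was not tested. In FRTL5 cells at 17 h Slc5a5, the sodium-iodide symporter that TSH is known to induce, was the thyroid gene called against basal (2.62 ± 0.18, limma adjusted p = 1.86e-06). No gene of the other 4 marker lists was called, where 4.12% of all genes were. The thyroid genes Tg and Pax8 were called too with the replicate block within line, where 9.92% of all probe sets were, but not both as increases. Of the 6 measured thyroid genes 2 lay above basal at 17 h and 4 below, and 52.4% of all genes lay above. Without that block, the thyroid count was 2 without FRTL5 basal replicate 1 or without FRTL5 17 h replicate 3.

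The genes whose signal was most like each member's over the 18 arrays, after each line's mean was subtracted, were drawn from 2144 genes with enough spread. For Myc they were Junb and Jun (r = 0.92 each) and Dusp1 (r = 0.91), and for Id1 they were Ier3 (r = 0.90), Dusp1 (r = 0.89) and Pim3 (r = 0.89). Junb, Jun, Dusp1 and Ier3 are known immediate-early genes. For Id3 the closest were Camk1 (r = 0.84), Stat2 (r = 0.78) and Id1 itself (r = 0.77). Btg1 was closest to Traf3ip2 (r = 0.93), Ech1 (r = 0.92) and Trim3 (r = 0.90), and Mxi1 to Psen2 (r = 0.93), Pnrc1 (r = 0.92) and Cep95 (r = 0.90). Id2 was closest to Ttc3, Col4a5 and Anxa1 (r = 0.93 each). The points share arrays and, in FRTL5 cells, the arrays numbered 1 that stand high in Id2, so these values describe the 18 arrays only.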

How the data were processed

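The authors deposited log2 signals for 18 rat arrays, made with RMA per the submitters' processing notes, with no version or build given in the sources used here. Of 8799 probe sets, 59 controls were left out and 8740 tested. The platform annotation gave 1 symbol to 7006, several to 308 and none to 1426. Several probe sets for a gene were kept apart, and lists used the one with the highest mean signal. No filter was set. Differences came from limma 3.58.1 in R 4.3.3, a two-sided test in 1 model of 6 group means (12 residual degrees of freedom) with Benjamini-Hochberg adjustment within each contrast and calls at 0.05, checked on simulated data. The members, gene lists and tests were chosen with earlier results of these data known. Named list genes were up to 4 for each list and comparison, those called with the smallest p, otherwise those with the largest absolute difference, of which the text prints a part. Likeness was Pearson's r with genes of SD at least 0.2. Same-numbered arrays deviated together (correlations of 0.148 to 0.798 over 9 pairs in FRTL5 and 0.158 to 0.619 over 9 in FRT/TSHR), so the number was also fitted as a block within a line. No 2 arrays correlated above 0.996. Promoters came from RefSeq GRCr8. Alternatives were that block, a block shared by the lines, requantiling, a trend in eBayes, only the groups compared, the lowest 25% of signals left out, averaged probe sets, and arrays left out.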

Additional observations from a re-analysis of the deposited data

Results flagged for a closer look

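At 17 h of TSH, 2 of the member probe sets had a called difference between the lines' responses. That was so for 0.789% of all probe sets, and for 0.309% in the direction above 0. The difference is given here as a description because it contains the FRTL5 responses with which the genes were listed. FRT/TSHR minus FRTL5, the difference of the responses was 1.13 for Btg1 L26268_at and 0.92 for Mxi1 rc_AA893611_s_at, and both were called in the model's own term for that difference. Btg1 differed from basal by 0.04 ± 0.13 in FRT/TSHR cells and by -1.10 ± 0.13 in FRTL5 cells. Mxi1 differed from basal by 0.27 ± 0.12 in FRT/TSHR cells and by -0.64 ± 0.12 in FRTL5 cells. Leaving out all 6 arrays numbered 1 ended both, and fitting only the groups compared ended that of Mxi1. Line, medium and dose cannot be told apart.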

How the results depend on the processing

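No value among the 11 probe sets reversed where it was called. Of 1401 values under the alternatives, 1323 kept their side of the threshold, 66 lost a call and 12 gained one. Only 27 values of the 11 probe sets were called in the main fit, over all comparisons, and the 66 losses fell on these. The values that kept their side include those never called. With the replicate block within line, the probe sets called went to 7 of 11 in FRTL5 cells at 17 h against basal, and over all probe sets to 40 (FRTL5 30 min), 867 (17 h), 916 (17 h against 30 min), 8 (difference of 30 min responses) and 365 (difference of 17 h responses), where the fit without it gave 21, 311, 368, 3 and 69. That block gave no value for the line comparison, where it is not estimable. A block shared by both lines, chosen after seeing the data, gave 508, 584 and 148 for 17 h, 17 h against 30 min and the difference of 17 h responses. Fitting only the groups compared gave 0 of the 11 at 30 min, 5 for 17 h against 30 min and 1 for the difference of 17 h responses, and over all probe sets 2, 96, 189, 1 and 22 in the order above. Without the FRTL5 arrays numbered 1 the counts were 2 of the 11 at 17 h and 1 for the difference of 30 min responses, and over all probe sets 45 at 30 min and 25 for that difference. Without all 6 arrays numbered 1, also chosen after seeing the data, they were 2 at 17 h and 0 for the difference of 17 h responses, and over all probe sets 52 at 30 min, 25 for the difference of 30 min responses and 2 for FRT/TSHR at 30 min, where the main count was 0. The cause of these shifts was not tested. Leaving out 1 array gave, for the 11 and for all probe sets, 1 to 3 and 12 to 44 in FRTL5 cells at 30 min, 2 to 4 and 152 to 253 at 17 h, 3 to 8 and 145 to 270 for 17 h against 30 min, 7 to 8 and 1877 to 2068 between basal lines, 0 to 1 and 1 to 24 for the difference of 30 min responses, and 2 to 3 and 33 to 83 for that at 17 h. The FRT/TSHR counts stayed at 0 without any 1 array. Signal over background was not given for these arrays, so a low value is not called absent.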
